A study of Arabidopsis thaliana with 12 samples.

Results

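Class III peroxidases are secreted plant enzymes that oxidise phenolic compounds and proteins in the cell wall with hydrogen peroxide, and that can also make or remove reactive oxygen species there. In Arabidopsis roots they are known for tightening the walls of elongating cells, for root hair growth and for polymerising lignin. Their genes form a large family with many close relatives. The 5 genes described here, AT5G17820, AT4G26010, AT4G30170, AT5G15180 and AT4G36430, are members of that family, and were named by locus with earlier results for the fad2 mutant and the cold in view. Each had 1 probe set among the 22810 of the array, they are 5 of 13286 genes with a named probe set, and all 5 passed the filter on low signals described below. The family holds 73 genes by locus in the list used here, of which 55 have a named probe set on the array; 30 of them, these 5 and 25 others, entered the tests. None of the 5 carries a family number in the gene table used here, so locus names are kept.

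The series measured transcripts of whole Arabidopsis thaliana seedlings on 12 Affymetrix ATH1 arrays, and its title concerns membrane fluidity in the perception of low temperature. All seedlings, at growth stage 1.02, had spent 4 days in a fridge after sowing and then grew on MS medium at 20 °C under 16 h of light and 8 h of dark. There were 6 lines with 1 array at ambient temperature and 1 in the cold. How cold the treatment was, and how long it lasted, is not stated in the labels. The control lines were Col-0, the wild type under stock code N1092, and Col-aeq, which by its name is a Columbia line with the apoaequorin calcium reporter. Of the altered lines, fab1 and fad2 came from EMS mutagenesis, as did the single mutants that were crossed to give the triple mutant fad3/7/8. The fab1 mutation lowers the elongation of palmitate, fad2 impairs the oleate desaturase of the endoplasmic reticulum, and fad3/7/8 lacks linoleate desaturases and carries aequorin according to its titles. The line 35S-FAD3 expresses a linoleate desaturase from the 35S promoter, which is active in most plant cells, according to its titles, but its genotype label gives 35S::apoaequorin alone. It was grouped by the title. Each line is 1 genotype with no second allele. None of the 5 genes the genotypes are named for (FAB1, FAD2, FAD3, FAD7 and FAD8) had a named probe set, so the genotypes were not checked on the arrays.

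Nothing in the labels says that the 12 arrays came from separate growths, and all are marked as replicate 1. A p-value for a line therefore measures its difference against the spread left by line and temperature, and anything common to both arrays of a line is part of that difference. Signals are MAS5 values on a linear scale, and differences are on the scale of log2(signal + 1.6), with limma's standard error (SE). The number of arrays limits the precision, and levels of different probe sets are not comparable. One array stood apart, Col-aeq at ambient temperature, with an actin 3′ to 5′ ratio of 7.005 against 1.965 to 2.21 on the 11 other arrays and a 25S ribosomal RNA signal of 2463 against 99.1 to 849.3. Several fad2 differences are also given without both Col-aeq arrays. No array held roots alone, and of 16 root markers 1 had a named probe set, PYK10, a beta-glucosidase of root endoplasmic reticulum bodies, with signals of 2269 to 2286 in fad2 and 2230 to 2816 in the other lines. The summed signal of the 4 shoot markers with a named probe set was 10610 to 12340 in fad2 and 11090 to 13520 elsewhere. In whole seedlings, fewer cells of a type and less RNA per cell cannot be told apart.

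The 5 genes did not behave alike. AT4G36430, AT4G26010 and AT5G17820 had both fad2 arrays above all 10 arrays of the other lines, whereas AT4G30170 and AT5G15180 did not. AT4G26010 and AT4G30170 were lower in the cold in at least 5 of the 6 lines, whereas the other 3 were not. The fad2 and cold values chose these genes, so both are descriptions without a test.

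AT4G36430 showed the widest separation. Its fad2 signals were 203.4 at ambient temperature and 174.3 in the cold. The control arrays gave 44.6 and 47.2 in Col-0 and 32.7 and 43.7 in Col-aeq, again with the ambient array first. The 3 other altered lines gave 19.3 and 35.6 in fab1, 42.6 and 44.0 in 35S-FAD3, and 40.1 and 29.5 in fad3/7/8. No array outside fad2 came near the fad2 level, which was 4.56 times that of the highest other line at ambient temperature and 3.69 times in the cold. The mean fad2 difference from the control lines was 2.13 on the log2 scale (SE 0.228), or 4.39-fold. It was 2.00 without both Col-aeq arrays and 2.42 against the mean of the 3 other altered lines, in which no control array enters.

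AT4G26010 is known, together with close relatives, from the growth of root hairs. Its signals in fad2 were 291.0 at ambient temperature and 199.6 in the cold. Col-0 gave 104.2 and 52.9, and Col-aeq gave 37.1 and 50.3. The values were 82.3 and 39.3 in fab1, 85.4 and 56.0 in 35S-FAD3, and 91.1 and 28.9 in fad3/7/8. Both fad2 arrays again lay above the rest, and the lowest ambient value was that of the Col-aeq array with the high actin ratio. The fad2 difference was 2.06 (SE 0.305), or 4.16-fold. Without both Col-aeq arrays it was 1.68, and with Col-aeq as the control alone 2.44.

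AT5G17820 is a known target of the transcription factor UPB1, which represses it in the root as cells pass from division to elongation. Its fad2 signals were 225.6 at ambient temperature and 189.4 in the cold. Col-0 gave 104.8 and 113.3, and Col-aeq gave 82.3 and 83.0. The remaining lines gave 66.5 and 52.8 in fab1, 92.3 and 118.0 in 35S-FAD3, and 91.0 and 51.5 in fad3/7/8. The fad2 arrays were the 2 highest, by a smaller margin than for the preceding genes, at 2.15 times the highest other line at ambient temperature and 1.60 times in the cold. The fad2 difference was 1.11 (SE 0.202), or 2.16-fold, and 0.91 without both Col-aeq arrays.

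AT4G30170 and AT5G15180 showed small differences in fad2. For AT4G30170 the fad2 signals were 221.7 and 190.2, while the 10 other arrays ran from 103.8 to 238.9 with a median of 159.4. The groups overlapped, because fad3/7/8 at ambient temperature, at 238.9, exceeded both fad2 arrays. Its control arrays gave 171.3 and 145.5 in Col-0 and 160.1 and 128.0 in Col-aeq, and its fad2 difference was 0.45 (SE 0.154). AT5G15180 was dim throughout, with fad2 signals of 38.6 and 27.6, other arrays from 14.4 to 28.4 with a median of 24.7, and a mean of 25.7 close to the filter level of 22.9. Its control arrays gave 22.5 and 23.0 in Col-0 and 14.4 and 22.5 in Col-aeq. Only the ambient fad2 array lay above the rest, and the cold one lay below fad3/7/8 in the cold, at 28.4. The fad2 difference of AT5G15180 was 0.65 (SE 0.227), and it was 0.49 without both Col-aeq arrays, 0.28 against the 3 other altered lines and 0.32 without the ambient fad2 array.

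**Figure D1:**
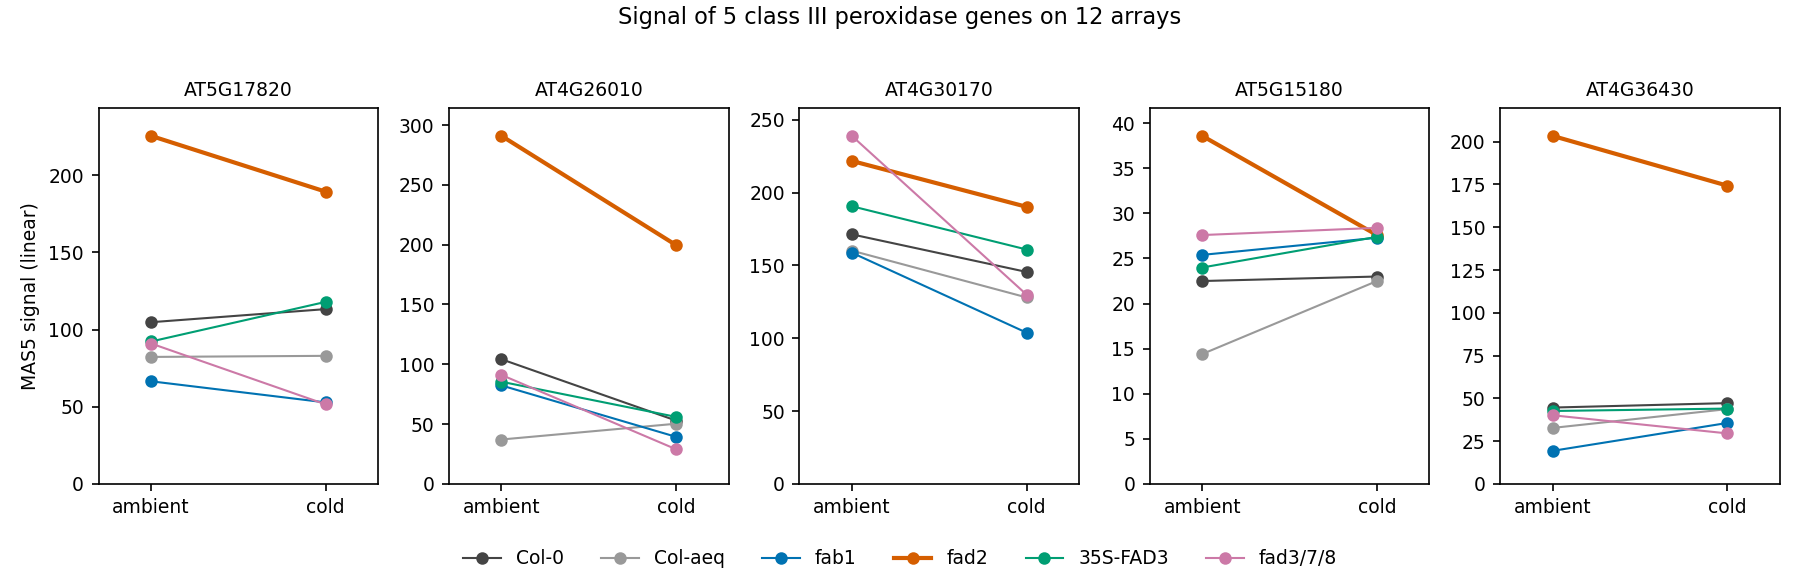
MAS5 signal (linear scale) of the 5 peroxidase genes at ambient temperature and in the cold; each point is 1 array and each line joins the 2 arrays of a plant line. The fad2 points of AT5G17820, AT4G26010 and AT4G36430 lie above all other points in their panels, whereas fad3/7/8 at 238.9 is the highest ambient point for AT4G30170.

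Counted over the array, both fad2 arrays exceeded the 10 others for 3 of the 5 genes, against 8.51% of the 13649 tested probe sets, a contrast on which the genes had been chosen. All 5 genes would also pass the filter on the mean of the 10 other arrays alone.

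The order of the lines, by the mean of their 2 arrays, put fad2 first for each of the 5 genes. The gap from fad2 to the next line, which the choice of genes fixed in part and which is given without a test, was 2.00 for AT4G36430, 1.68 for AT4G26010 and 0.91 for AT5G17820, with Col-0 next for all 3. It was 0.22 for AT4G30170 and 0.21 for AT5G15180, with fad3/7/8 next, where the SE of a difference between lines was 0.178 and 0.262. Below fad2, no pair of neighbouring lines differed by more than 2 SE for any of the 5 genes. The lowest place went to fab1 for AT5G17820, AT4G30170 and AT4G36430 and to Col-aeq for AT4G26010 and AT5G15180.

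The 3 other altered lines ask whether these genes also differed with other changes of membrane lipids, which was not part of how the genes were chosen. None of the 5 passed an adjusted p under 0.05 (limma, Benjamini-Hochberg over 13649 probe sets) in fab1, 35S-FAD3 or fad3/7/8 against the control lines. Few probe sets of the whole array did, at 0.0147% in fab1, 0.19% in 35S-FAD3 and 0.0366% in fad3/7/8. At an unadjusted p under 0.05 the counts were 2, 0 and 1 of 5, against 6.14%, 12.4% and 12.5% of all tested probe sets. These contrasts share their 4 control arrays with the fad2 contrast.

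In fab1, AT5G17820 was 0.67 below the control lines (difference −0.67, 95% interval −1.11 to −0.22, limma adjusted p = 0.702). AT4G36430 was similar in size, at −0.63 (interval −1.14 to −0.13, limma adjusted p = 0.765). The fab1 signals of AT5G17820, 66.5 and 52.8, lay below all 4 control arrays, which ran from 82.3 to 113.3. For AT4G36430 only the ambient fab1 signal, 19.3, lay below its control arrays, which ran from 32.7 to 47.2. The cold fab1 signal of AT4G36430, 35.6, lay among them. In fad3/7/8 AT5G17820 differed by −0.46 (interval −0.91 to −0.016, limma adjusted p = 0.393), and its ambient signal of 91.0 lay among the controls. The remaining intervals held 0 and were wide, for AT4G26010 from −0.67 to 0.68 in fab1 and from −0.81 to 0.54 in fad3/7/8. Differences of AT4G26010 as large as its fad2 difference lie outside those intervals.

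The contrast of 35S-FAD3 with fad3/7/8 uses no control or fad2 array. It passed the threshold for 0 of 5 genes, against 0.044% of all tested probe sets, and for 1 of 5 at an unadjusted p under 0.05, against 7.26%. That gene was AT5G17820, higher by 0.60 in 35S-FAD3 (interval 0.083 to 1.11, limma adjusted p = 0.621). The 35S-FAD3 and fad3/7/8 signals of AT5G17820 did not overlap, at 92.3 and 118.0 against 91.0 and 51.5, although the ambient arrays were nearly equal. The interval for AT4G30170 was −0.40 to 0.38.

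**Figure D2:**
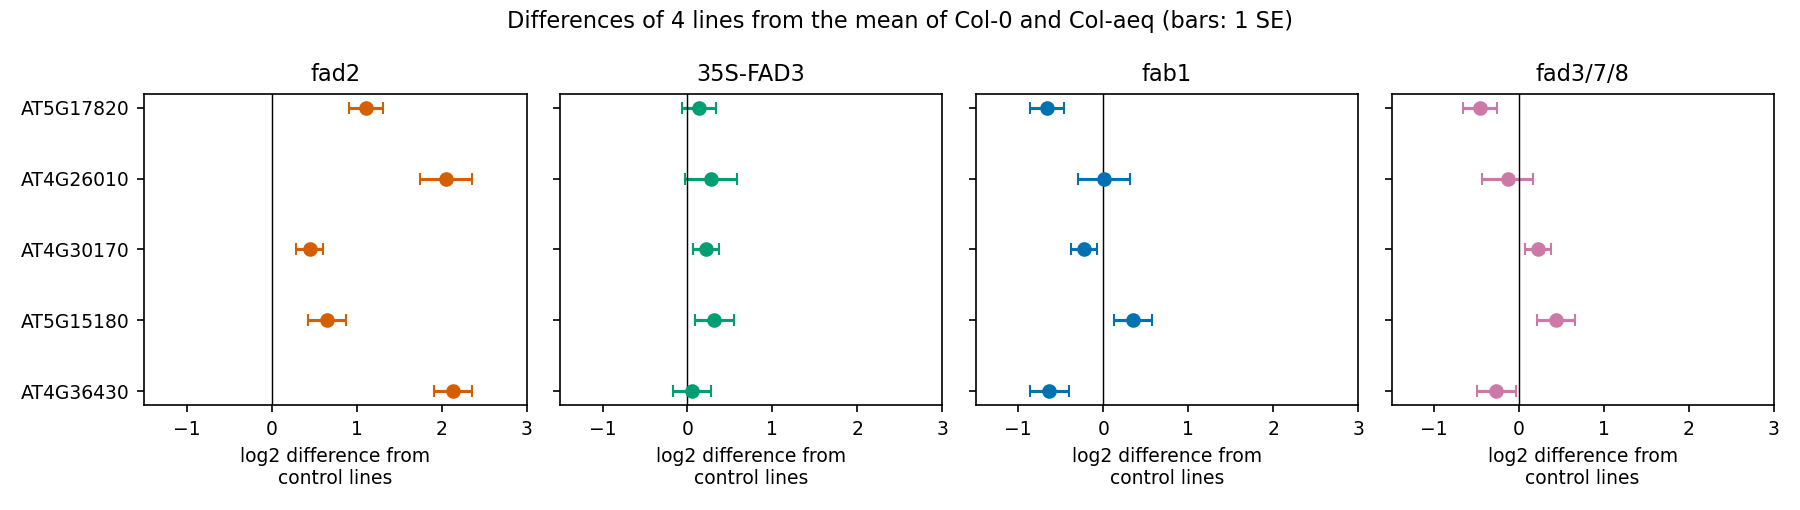
Difference of each altered line from the average control line on the log2 scale; points are limma estimates over both temperatures and bars are 1 SE. In fad2 the estimates run from 0.45 to 2.13, and in the other 3 lines they lie between −0.67 and 0.44.

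In the cold, AT4G30170 and AT4G26010 were lower in most lines. AT4G36430 was higher in 4 of 6 lines and AT5G15180 in 5 of 6, while AT5G17820 went either way. Shares of all tested probe sets were counted for 6 of 6 lines only. AT4G30170 was lower in 6 of 6 lines, as were 18.5% of all tested probe sets, with a mean change of −0.41 (SE 0.103). Its changes ran from −0.22 in fad2 to −0.87 in fad3/7/8. AT4G26010 was lower in 5 of 6 lines, by −0.96 in Col-0, −1.04 in fab1, −0.54 in fad2, −0.59 in 35S-FAD3 and −1.60 in fad3/7/8, and higher by 0.42 in Col-aeq. Its mean change was −0.72 (SE 0.203), and −0.95 without both Col-aeq arrays.

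AT5G17820 was higher in the cold in 3 lines and lower in 3, from −0.80 in fad3/7/8 to 0.35 in 35S-FAD3, and its mean change was −0.15 (SE 0.134). AT4G36430 ran from −0.42 in fad3/7/8 to 0.83 in fab1, with a mean of 0.12 (SE 0.152), or −0.024 without a fab1 array. AT5G15180 was higher in 5 of 6 lines with a mean of 0.08 (SE 0.151). Its largest rise, 0.59 in Col-aeq, starts from the signal of 14.4 on the array with the high actin ratio, and its mean change was −0.023 without both Col-aeq arrays. These means are smaller than or close to 1 SE.

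Whether fad2 changed the cold response was tested on the 6 within-line differences, since the choice of genes did not use that difference. None of the 5 passed (limma adjusted p = 0.9999 for each), as was the case for all 13649 probe sets. With no adjustment (p under 0.05), 0 of 5 passed as well, against 2.88% of all tested probe sets. The estimates ran from −0.65 for AT5G15180 (interval −1.48 to 0.19) to 0.23 for AT4G30170 (interval −0.40 to 0.87). The interval for AT4G26010, −1.08 to 1.51, is wider than its mean cold change, so differences of that size between fad2 and the other lines were not detectable.

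The cold change was lowest in fad3/7/8 for 4 of the 5 genes and for 11 of the 25 other tested class III peroxidases, against 15.4% of all tested probe sets. This pattern was seen in the values first and then tested on the same arrays. The cold change of fad3/7/8 minus that of the 5 other lines was −1.06 for AT4G26010, −0.78 for AT5G17820 and −0.55 for AT4G30170. None passed the threshold (limma adjusted p = 0.9998 for each), and 0 probe sets of the array did. Because the pattern was seen first, these differences are a description. For all 5 genes they rest on the same 1 fad3/7/8 array at each temperature, so the genes are not separate evidence.

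**Figure D3:**
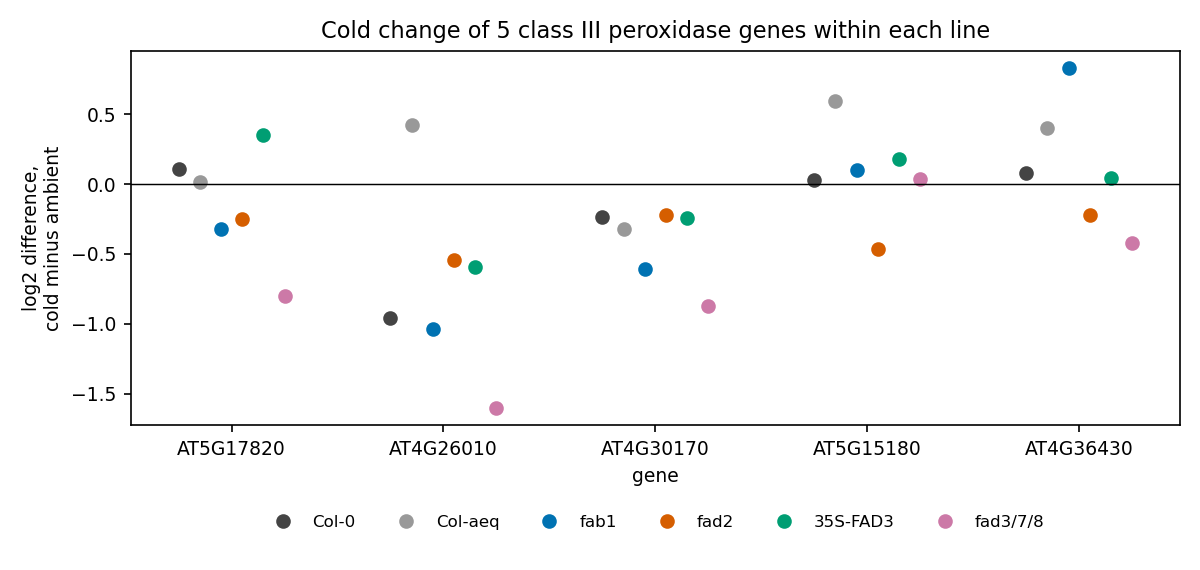
Change in the cold on the log2 scale (cold minus ambient array) for the 5 genes; each point is 1 line. All 6 points of AT4G30170 and 5 of 6 of AT4G26010 lie below 0, and the fad3/7/8 point is the lowest for all genes but AT5G15180.

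The rest of the family was listed by locus, with earlier results of these arrays known, so its counts are a description beside the shares of all probe sets. In fad2, 9 of the 25 other tested class III peroxidases (36%) were higher than in the control lines at an adjusted p under 0.05, against 5.19% of all tested probe sets, and 1 (4%) was lower, against 4.29%. The median difference of the 25 was 0.39, and that of all tested probe sets was 0.02. Both fad2 arrays exceeded the 10 others for 11 of the 25, against 8.51% of all tested probe sets. All 9 genes called higher had both fad2 arrays above the rest and would pass the filter without the fad2 arrays. Of the 25 family members under the filter, which were not tested, 6 had both fad2 arrays above the rest, against 5.39% of the 9097 probe sets under the filter.

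Prx37 (AT4G08770), which restrains growth when overexpressed, was the most raised of the 9. Its signals were 192.3 and 177.5 in fad2 and 41.0 to 67.0 on the other arrays, and its difference of 1.83 (SE 0.156, limma adjusted p = 0.000444) lies between those of AT4G26010 and AT5G17820. AT1G30870 was higher by 1.36 (SE 0.231, limma adjusted p = 0.0081), at 134.9 and 125.8 against 31.2 to 65.7. AT1G68850 was higher by 1.17 (limma adjusted p = 0.0249), at 55.8 and 62.7 against 11.2 to 48.3, the lowest being the Col-aeq array with the high actin ratio. Its difference was 1.64 against Col-aeq alone but 0.71 against Col-0 alone and without both Col-aeq arrays, where its call was lost (limma adjusted p = 0.229 and 0.0998). PRX72 (AT5G66390), which takes part in lignin deposition, was higher by 1.11 (limma adjusted p = 0.0314), nearly the difference of AT5G17820. None of these genes overlapped with the other lines on any array. AT1G44970 (1.07) and AT5G58390 (0.99) were also higher by limma, with adjusted p = 0.0133 and 0.0479. Smaller rises that passed were those of AT4G11290 (0.81), AT2G18980 (0.78) and AT3G21770 (0.71). AT5G64110 was the gene called lower, by −0.61 (limma adjusted p = 0.0183), at 43.0 and 45.1 in fad2 against 47.4 to 74.0.

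The count of 9 depended on single arrays. Without the ambient or the cold fad2 array it was 1, with 0.19% and 0.571% of all tested probe sets called higher. Without the ambient Col-0 array it was 3, with 1.8%, and without the cold Col-aeq array 13, with 14.8%. Without both Col-aeq arrays it was again 9, with 5.93% of all tested probe sets called higher. Of the 9 genes, 7 were the same, while AT1G68850 and AT4G11290 were lost and AT3G01190 and PRXR1 gained. Prx37 was called in every run made, with adjusted p up to 0.0154 by limma. AT1G30870 was lost in the runs without 1 fad2 array, with limma adjusted p = 0.107 and 0.083. The call on AT5G58390 was lost in 9 of the 12 runs without 1 array, with limma adjusted p up to 0.374, and that on PRX72 in 4 (up to 0.251). AT1G44970 was lost without either fad2 array, and AT1G68850 without either fad2 array or the ambient Col-0 array, with limma adjusted p up to 0.187 and 0.286. The call on AT5G64110 was lost without either fad2 array or either Col-0 array. Against Col-0 alone the count was 3, with 2.57% of all tested probe sets called higher (Prx37, AT1G30870 and AT3G21770).

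**Figure D4:**
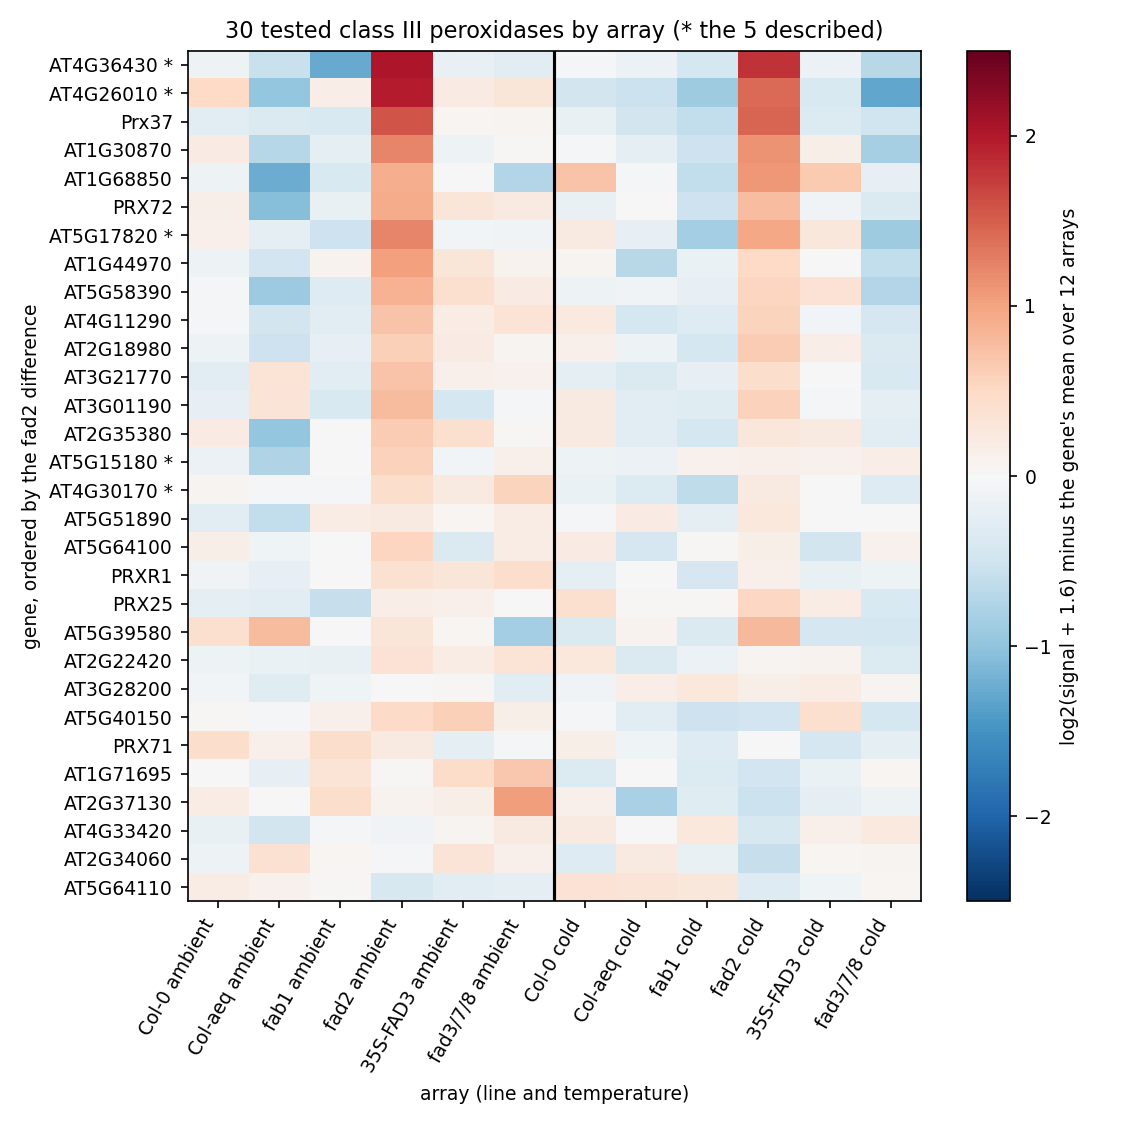
Signal of the 30 tested class III peroxidases on each of the 12 arrays, as log2(signal + 1.6) minus the gene's mean over the arrays, with genes ordered by the fad2 difference and a line between ambient and cold arrays. The upper rows are darkest in the 2 fad2 columns, where AT4G36430, AT4G26010 and Prx37 lead, and the Col-aeq ambient column is low for several genes, among them AT1G68850.

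In the cold, 2 of the 25 other peroxidases were higher, against 15.1% of all tested probe sets, and 5 were lower, against 18.4%. Their median change was −0.14, and that of all tested probe sets was −0.03. Lower in 6 of 6 lines were 4 of the 25, against the 18.5% given above, and 1 was higher in 6 of 6, against 14.8%. AT2G37130 was the most lowered, by −0.63 (limma adjusted p = 0.00311), followed by AT5G40150 (−0.45, adjusted p = 0.0267) and AT1G71695 (−0.43, adjusted p = 0.0126). PRX71 (AT5G64120), a wall peroxidase that limits growth, was lower by −0.31 (limma adjusted p = 0.0244). PRXR1 (AT4G21960) was lower by −0.27 (limma adjusted p = 0.0441). Both rises were near the threshold, AT1G68850 at 0.53 (limma adjusted p = 0.0424) and AT3G28200 at 0.25 (adjusted p = 0.0487), and neither held without both Col-aeq arrays, at 0.39 and 0.20 (adjusted p = 0.0797 and 0.0698). AT1G71695 and AT2G37130 kept their calls in every run made. Leaving out 1 array lost the other calls for at least 1 array each. The counts were then 0 or 1 higher and 2 to 6 lower, with 12.3% to 16.7% and 14.1% to 22.3% of all tested probe sets. For the cold change, leaving out either array of a line gives the same estimate.

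**Figure D5:**
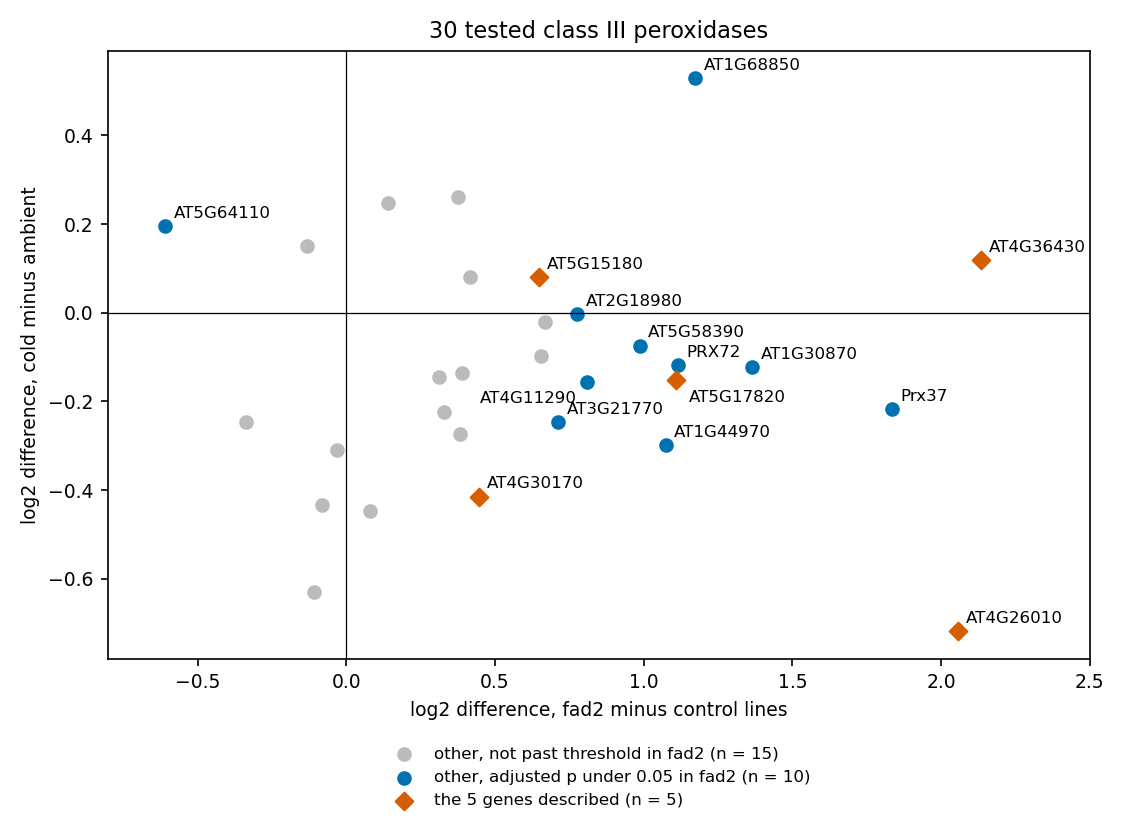
Fad2 difference (horizontal) against cold change (vertical) on the log2 scale for the 30 tested class III peroxidases; orange diamonds are the 5 genes described, blue points other members past the threshold in fad2 and grey points the rest. The points past 1.8 to the right are AT4G36430, AT4G26010 and Prx37, of which AT4G26010 is the lowest in the cold.

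In the other contrasts 0 of the 25 passed. At an unadjusted p under 0.05 there were 7 in 35S-FAD3 against 12.4% of all tested probe sets, 0 in fab1 against 6.14%, and 4 in fad3/7/8 against 12.5%. Between 35S-FAD3 and fad3/7/8 there were 4, against 7.26%. The cold change of fad2 gave 0, against 2.88%. The lowest p in 35S-FAD3 were those of PRX71 (−0.48, limma adjusted p = 0.24) and AT5G64110 (−0.43, limma adjusted p = 0.256). In fab1 they were AT3G01190 (−0.36) and AT5G39580 (−0.42), with limma adjusted p = 0.80 for both after rounding. AT5G39580 (−0.87, limma adjusted p = 0.277) and AT2G37130 (0.58, adjusted p = 0.289) led in fad3/7/8. Between 35S-FAD3 and fad3/7/8 they were AT5G64100 (−0.55, limma adjusted p = 0.358) and AT5G40150 (0.65, adjusted p = 0.581). For the cold change of fad2 they were AT4G33420 (−0.55) and AT5G39580 (0.87), with limma adjusted p = 0.9999. Without the cold Col-aeq array, 5 of the 25 passed in 35S-FAD3 and 5 in fad3/7/8, while 0 of the 5 genes described did; in those runs 12.3% and 13.3% of all tested probe sets passed.

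Genes that act with these enzymes could be followed only in part. Of the 22810 probe sets, 13436 matched 1 gene of the table used for names, and the rest were not assigned here. Of 19 root hair genes, 2 were tested, both root hair expansins, which loosen the wall. EXPA18 was higher in fad2 by 0.96 (limma adjusted p = 0.033); its fad2 signals, 63.7 and 50.5, lay above the range of 18.1 to 40.6 elsewhere. EXPA7 stood at 0.75 (limma adjusted p = 0.0587), with 56.6 and 51.2 against 19.4 to 35.9. The EXPA18 difference was 0.68 without both Col-aeq arrays (limma adjusted p = 0.0521). Its call was lost in 8 of the 12 runs that left out 1 array, with limma adjusted p up to 0.269, while EXPA7 passed without the cold Col-aeq array (0.0167) and without either fad3/7/8 array.

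Extensins are wall proteins that peroxidases crosslink, and 1 of the 3 listed had a named probe set, HRGP1. It was higher in fad2 by 1.09 (SE 0.143, limma adjusted p = 0.00305), at 154.5 and 132.1 against 48.7 to 74.0. Its call was lost without the ambient fad2 array (limma adjusted p = 0.0687). By the suffix of its probe set, probes of HRGP1 may also match related sequences. In the cold HRGP1 stood at −0.22 (limma adjusted p = 0.0976).

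Both regulators with a named probe set, of 4 listed, are repressors of peroxidase genes. UPB1 stood at −0.40 in fad2 (SE 0.297, limma adjusted p = 0.436), with 26.1 and 25.6 against 21.6 to 48.6. KUA1, which restrains peroxidase genes during leaf cell expansion, stood at −0.33 (limma adjusted p = 0.176). Its fad2 signal was 157.2 at ambient temperature, within the 104.3 to 228.1 of the other arrays. The cold fad2 signal, 72.9, lay below that range. The KUA1 difference in fad2 was negative in every run made, and its lowest limma adjusted p over those runs was 0.0101. In the cold KUA1 was lower by −0.70 (limma adjusted p = 0.000209), while UPB1 stood at −0.010 (limma adjusted p = 0.974). That UPB1 mean joins a rise in fad3/7/8, from 21.6 to 48.6, with falls in all other lines. Among these falls were 40.8 to 35.9 in Col-0 and 40.5 to 23.9 in Col-aeq. Of the 21 genes of monolignol synthesis and laccases, which supply and polymerise lignin precursors, CCR2 and HCT were tested. Both rose in the cold, CCR2 by 0.54 (limma adjusted p = 0.0152) and HCT by 0.23 (adjusted p = 0.0282). In fad2 they stood at 0.23 and 0.01, with limma adjusted p = 0.542 and 0.973. The HCT call in the cold was lost in 8 of the 12 runs without 1 array (limma adjusted p up to 0.0861). Because either array of a line gives the same cold estimate when left out, these 12 runs hold 6 distinct estimates. The CCR2 call was lost without the cold fad3/7/8 array (limma adjusted p = 0.052).

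The intracellular peroxidases tested, SAPX and TAPX of 19 listed, use ascorbate in the chloroplast. In fad2 they stood at −0.29 and 0.05 (limma adjusted p = 0.225 and 0.87), and in the cold at 0.23 and −0.21 (adjusted p = 0.0924 and 0.112). The root marker PYK10 stood at −0.14 in fad2 (limma adjusted p = 0.398) and −0.09 in the cold (adjusted p = 0.288). Among the 4 shoot markers 0 passed in fad2, and LHCB4.1, a light-harvesting protein, was lower in the cold by −0.31 (limma adjusted p = 0.00253). The shoot markers PRK and RCA stood at −0.15 and −0.02 in fad2 and at −0.05 and −0.10 in the cold, where limma gave adjusted p = 0.5 and 0.164. Of 12 genes for the Casparian strip and suberin, 0 had a named probe set, and of 10 NADPH oxidases, 3 had one and 0 passed the filter.

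Likeness over the 12 arrays was described by Pearson's r of log2 signals, which the 2 fad2 arrays and the shared arrays of a line weigh on. Among the 5 genes, r was highest for AT5G17820 with AT4G36430 (0.891) and with AT4G26010 (0.842). Over the 10 arrays without fad2 these fell to 0.661 and 0.533, and that of AT4G26010 with AT4G36430 from 0.796 to 0.142. The pair AT4G26010 and AT4G30170 gave 0.748 and 0.714, and every pair with AT5G15180 was below 0.15 without fad2. Leaving out the fad2 arrays thus lowered r least for AT4G26010 with AT4G30170.

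Against the median profile of the 5, the highest r belonged to AT1G30870 (0.981, and 0.927 without fad2), HRGP1 (0.966 and 0.837) and AT5G52540 (0.961 and 0.84). For AT4G36430 it was AT3G13610 (0.981, and 0.849 without fad2), known as F6'H1, an enzyme of scopoletin synthesis. AT3G13650 (0.958, and 0.889 without fad2) and AT1G29980 (0.946, but 0.593 without fad2) followed. For AT4G26010 it was AT2G25910 (0.975), then EXPA18 (0.962, and 0.909 without fad2) and AT5G04960 (0.949). The genes most like AT5G17820 were AT1G30750, AT5G35740 and AT1G67420 (0.957, 0.957 and 0.955). Those most like AT4G30170 were AT1G28400, AT3G59680 and AT3G07940 (0.939, 0.933 and 0.918). AT5G15180 was closest to CHR17 (0.969, and 0.97 without fad2), AT3G56740 (0.94 and 0.912) and AT3G50620 (0.916 and 0.863). On the chromosomes the 5 genes were spread out. AT4G26010 had another class III peroxidase, AT4G25980, 2 protein-coding genes away, and the nearest relatives of the other 4 were 108 to 230 protein-coding genes away.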

How the data were processed

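Per the labels' protocols, whole-seedling RNA was isolated with a Qiagen kit and biotin-labelled by in vitro transcription for ATH1 arrays. The deposited values are intensity (MAS5 signal, linear scale); the submitters' processing notes name MAS5 and GCOS without versions. The trimmed mean signal (2% off each end) was 100.0 on each array, so the authors' scaling was kept; array medians were 34.5 to 39.3, and 182 values were 0. Of 22810 probe sets, 14016 had a platform gene entry, and 13436 matched 1 gene of the RefSeq table of TAIR10.1, which was used for names and neighbours. The 64 control probe sets were not tested.

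Differences were computed here on log2(signal + 1.6), 1.6 being the 10th percentile of all values, which understates changes of dim genes. Probe sets with a mean signal under 22.9 (40th percentile) were left out, and 13649 remained. Line and temperature were fitted with limma 3.58.1 (R 4.3.3), with 5 residual degrees of freedom and an intensity trend; cold changes were compared between lines on 6 within-line differences (4 residual degrees of freedom). The controls were Col-0 and Col-aeq averaged (4 arrays). The threshold was a Benjamini-Hochberg adjusted p under 0.05 over all tested probe sets. The groups of 1 array per line and temperature allow no SD. Python 3.11.15 with pandas 2.3.3, NumPy 2.4.6 and matplotlib 3.10.9 made tables and figures. When tested on simulated data (3 runs, 200 of 13649 probe sets changed), the fad2 fit found 14.7% of changes of 0.5 on the log2 scale, 70.7% at 1 and 94.7% at 2. The cold fit found 50.7%, 95% and 100%. The real fits called larger shares, 9.47% for fad2 and 33.5% for the cold, and the simulation held no other differences between lines. These recoveries are therefore not the power of the tests on the real arrays.

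The members, the 10 gene lists and the alternatives were chosen with earlier results of these data known. The other class III peroxidases named were, per contrast, up to 6 called rises and falls with the largest change, or the 2 with the lowest p where none was called; of each other list, up to 3 genes with the lowest adjusted p; for likeness, the 3 genes with the highest r. AT4G11290, AT2G18980 and AT3G21770 were named after their values were seen. Alternatives were quantile normalization, median centring, another pseudocount, a floor, no filter or a stricter one (60th percentile), no intensity trend, array weights, either control line alone, no line block, and leaving out arrays.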

Additional observations from a re-analysis of the deposited data

Results flagged for a closer look

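Among 15 groups of array values of the 5 genes (the ambient arrays, the cold arrays and the control arrays), 5 held an array far from the nearest other relative to the range of the group, by Dixon's criterion, which chance meets in about 1 of 20 groups. AT4G36430 in fad2 stood apart at ambient temperature (203.4) and in the cold (174.3). AT5G17820 in fad2 stood apart at ambient temperature (225.6) and AT4G26010 in fad2 in the cold (199.6). These 4 lie in the contrast on which the genes were chosen. AT5G15180 was low in Col-aeq at ambient temperature (14.4) among the 4 control arrays, the others being 22.5, 22.5 and 23.0. That array also had the actin 3′ to 5′ ratio of 7.005 and a GAPDH ratio of 1.867, against at most 1.189 on the other 11 arrays, and the part of RNA quality in the low value was not tested.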

How the results depend on the processing

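The 5 genes were called in 0 of the tested contrasts in every run made. Pairing by replicate number was not possible, because all arrays carry replicate number 1. The 2 arrays of a line were already paired by the line term of the fit. Other class III peroxidases higher in fad2 numbered 9, but 5 of the 50 then tested with no filter (1.91% of all probe sets called higher) and 3 against Col-0 alone (2.57%) (1 to 13 leaving out 1 array). Those lower numbered 1 (4.29% of all probe sets). They numbered 0 with the filter at the 60th percentile (5.93%) and against the 3 other altered lines (6.02%) (0 to 1). In the cold the 2 higher (15.1% of all probe sets) became 1 with quantile normalization (15.8%) or the stricter filter (17.3%). They also became 1 with no trend (14.8%) or array weights (17.3%). They became 0 with no filter (8.5%), without both Col-aeq arrays (16.6%), without the line block (11.4%) or without both fad2 arrays (13.2%) (0 to 1). The 5 lower (18.4% of all probe sets) became 2 without the line block (13.7%) and 3 without both fad2 arrays (15.4%) (2 to 6). In 35S-FAD3 and in fad3/7/8, 0 became 1 each without both Col-aeq arrays, where 2.31% and 5.08% of all probe sets passed (0 to 5). The causes were not tested.

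Median centring moved the median fad2 difference of all probe sets from 0.02 to −0.085 and the share of higher among fad2 calls from 54.8% to 34%. Of the 9 peroxidases higher in fad2, 7 kept their call, while 3.38% of all tested probe sets were called higher, against 5.19% before. Centring subtracts a constant from each array, so every difference moves by the same shift as the median. Relative to those medians the differences stay the same.

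Differences that changed sign had not passed the threshold. In the cold, UPB1 (AT2G47270) went from −0.010 to 0.0082 with quantile normalization, 0.0063 with median centring, 0.085 with array weights and 0.13 without both Col-aeq arrays (−0.23 to 0.13 leaving out 1 array), and PRK (AT1G32060) to 0.024 with quantile normalization. In fad2, HCT (AT5G48930) went to −0.097 with median centring, −0.11 against Col-0 alone and without both Col-aeq arrays, and −0.078 against the altered lines (−0.16 to 0.17). TAPX (AT1G77490) went to −0.058 with median centring, −0.0067 against Col-aeq alone and −0.098 against the altered lines (−0.0010 to 0.095). RCA (AT2G39730) went to 0.031 against Col-0 alone and without both Col-aeq arrays and 0.0081 against the altered lines (−0.044 to 0.0099), and SAPX (AT4G08390) to 0.027 against the altered lines.

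Against Col-0 alone, and also without both Col-aeq arrays, the 35S-FAD3 differences went to −0.061 for AT5G17820 (−0.17 to 0.43 leaving out 1 array), −0.10 for AT4G26010 (−0.063 to 0.62) and −0.081 for AT4G36430 (−0.031 to 0.14), and the fab1 difference of AT4G26010 to −0.37 (−0.34 to 0.35). Against Col-aeq alone the fad3/7/8 difference of AT4G26010 went to 0.25 (−0.67 to 0.40). Leaving out 1 array gave −0.047 to 0.50 for AT4G30170 and −0.59 to 0.061 for AT4G36430 in fad3/7/8. Between 35S-FAD3 and fad3/7/8, AT4G30170 went to 0.0092 with quantile normalization (−0.28 to 0.26), and AT4G26010 and AT4G36430 ranged from −0.12 to 0.94 and from −0.0071 to 0.64. The cold change of fad2 minus the others ranged from −0.29 to 0.00048 for AT5G17820. That of fad3/7/8 for AT5G15180 went to 0.050 with quantile normalization, 0.025 with median centring and 0.077 without both Col-aeq arrays (−0.19 to 0.077).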

Other observations

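The genes below were under the filter, chosen after their values were seen, and not tested. NADPH oxidases form the family that makes extracellular superoxide. Of the 3 with a named probe set, AT1G19230 and AT4G25090 had their 2 fad2 arrays above the rest. The same held for 5.39% of the 9097 probe sets under the filter. The remaining NADPH oxidase, AT4G11230, overlapped, at 5.9 and 11.6 in fad2 against 0.3 to 8.0. AT1G19230 read 24.8 and 21.0 in fad2 against 9.0 to 19.5, and AT4G25090 read 38.7 and 25.1 against 7.2 to 18.2. Of the class III peroxidases under the filter, AT3G49960 read 49.7 and 26.3 in fad2 against 0.7 to 22.2, and was called higher in fad2 and lower in the cold by limma when no filter was applied. AT4G08780, next to Prx37 on the chromosome, had a mean of 22.92, just under the filter, and read 43.4 and 31.4 in fad2 against 13.3 to 30.4.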
